A study of Saccharomyces cerevisiae with 15 samples.

Results

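Micrococcal nuclease (MNase) added to a calcium-treated yeast lysate was compared with calcium alone over the whole 35S rRNA gene. The comparison holds 6 of the 15 NET-seq libraries of the study, 3 of lysates treated with CaCl2 and MNase and 3 of lysates treated with CaCl2, and all 6858 positions of the gene were used. Libraries were taken by their group labels and by nothing measured. NET-seq (native elongating transcript sequencing) maps the 3′ ends of the RNA that comes down with a polymerase. The enzyme here was RNA polymerase I (Pol I), and a read marks the last base it had added. Wild-type Saccharomyces cerevisiae carrying an HA tag on RPA135, a large subunit of Pol I, was broken while frozen and Pol I was immunoprecipitated through the tag. In the CaCl2 + MNase group the lysate received CaCl2 at 5 mM and MNase at 100 U/µL before EDTA was added to 5 mM. The CaCl2 group received the same CaCl2 and EDTA without the enzyme, and both were held for 2 minutes at 37 °C. The protocol in the labels once calls the enzyme of this step DNase I, and the group names were followed. The labels do not say whether replicates of a treatment were separate cultures or lysates, so a p-value measures the spread between these libraries, which may be technical. The untreated libraries, with neither cation nor incubation, are given only for reference.

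Pol I makes 1 product, the 35S precursor of the 18S, 5.8S and 25S rRNAs. External and internal transcribed spacers (ETS1, ITS1, ITS2 and ETS2) lie around and between these rRNAs and are cut away and degraded as the precursor matures, whereas the rRNAs stay. NET-seq signal in a spacer therefore comes from young RNA, while signal in an rRNA gene can also come from mature ribosomal RNA that is bound during the purification. MNase is a bacterial nuclease that needs calcium and cuts DNA and RNA, with a known preference for sites before A and T or U. It is used on chromatin because DNA wrapped on a nucleosome resists it. EDTA binds the calcium and stops the enzyme.

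The positions that carry the largest spacer signals, and the largest spacer differences among positions of at least 10 CPM whose groups do not overlap, are given with 15 bases on each side, together with the A in 25S that had the smallest p and the A in 5.8S that had the largest fall and the highest signal of that gene. Each is written as RNA, 5′ to 3′, from the R64 assembly of S. cerevisiae chromosome XII, and the capital marks the base at the 3′ end of the mapped RNA. Position 1 is the 5′ end of the 35S gene (RDN37-2, chrXII:460712-467569, minus strand).
Position 63 (ETS1, chrXII:467492-467522, minus strand): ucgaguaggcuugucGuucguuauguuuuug
Position 437 (ETS1, chrXII:467118-467148, minus strand): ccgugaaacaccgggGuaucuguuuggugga
Position 555 (ETS1, chrXII:467000-467030, minus strand): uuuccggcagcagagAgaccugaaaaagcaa
Position 2503 (ITS1, chrXII:465052-465082, minus strand): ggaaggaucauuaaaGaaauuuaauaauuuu
Position 2741 (ITS1, chrXII:464814-464844, minus strand): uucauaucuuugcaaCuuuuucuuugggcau
Position 2842 (ITS1, chrXII:464713-464743, minus strand): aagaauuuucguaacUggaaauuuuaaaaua
Position 2970 (5.8S, chrXII:464585-464615, minus strand): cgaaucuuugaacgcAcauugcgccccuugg
Position 3021 (ITS2, chrXII:464534-464564, minus strand): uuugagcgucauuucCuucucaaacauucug
Position 3074 (ITS2, chrXII:464481-464511, minus strand): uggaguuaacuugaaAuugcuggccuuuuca
Position 4808 (25S, chrXII:462747-462777, minus strand): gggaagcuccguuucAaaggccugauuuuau
Position 6662 (ETS2, chrXII:460893-460923, minus strand): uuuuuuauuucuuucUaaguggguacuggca
Position 6669 (ETS2, chrXII:460886-460916, minus strand): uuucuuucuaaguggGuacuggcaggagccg
Position 2970 is nucleotide 109 of the 5.8S gene and position 4808 is nucleotide 1557 of the 25S gene. Position 6669 is inside the segment that the deposited table marks as cleaved by Rnt1, the RNase III that cuts the precursor behind the 25S rRNA.

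Signal is given in CPM, the reads at a position per 1000000 reads of the library on the 35S gene up to the first terminator, T1, at position 6739. The values were whole multiples of 1 read in at least 99.71% of positions in each of the 6 libraries, within 0.02 read. The recovered totals were 3401715, 7040553 and 13244349 reads in the CaCl2 + MNase libraries (replicates 1, 2 and 3), against 2867731, 5321422 and 12747077 reads in the CaCl2 libraries. A read was worth between 0.0756 and 0.349 CPM. The step is less certain in both replicates 3, where few values are near 1 read.

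The 6 libraries did not fall into their 2 groups. Over the 1504 spacer positions, CaCl2 + MNase replicate 1 had a Spearman correlation of 0.946 with CaCl2 replicate 3, against 0.778 and 0.929 with CaCl2 + MNase replicates 2 and 3. CaCl2 + MNase replicate 3 was likewise nearest to CaCl2 replicate 3, at 0.957. CaCl2 + MNase replicate 2 was nearest to CaCl2 replicate 1, at 0.924, and reached 0.852 with CaCl2 replicate 2. CaCl2 replicate 3 had only 0.775 and 0.739 with the other CaCl2 libraries. For 5 of the 6 libraries the most similar library was thus in the other group, and over the rRNA genes this held for 6 of 6. Each library could be nearest to 3 in the other group but only 2 in its own, and some nearest pairs were mutual. These correlations run over positions of 1 gene, which share base composition and processing sites, and are given as a description. No pair of libraries was a repeat of another, since read counts differed by 9.21 to 87.5 times the sampling variance over positions.

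**Figure D1:**
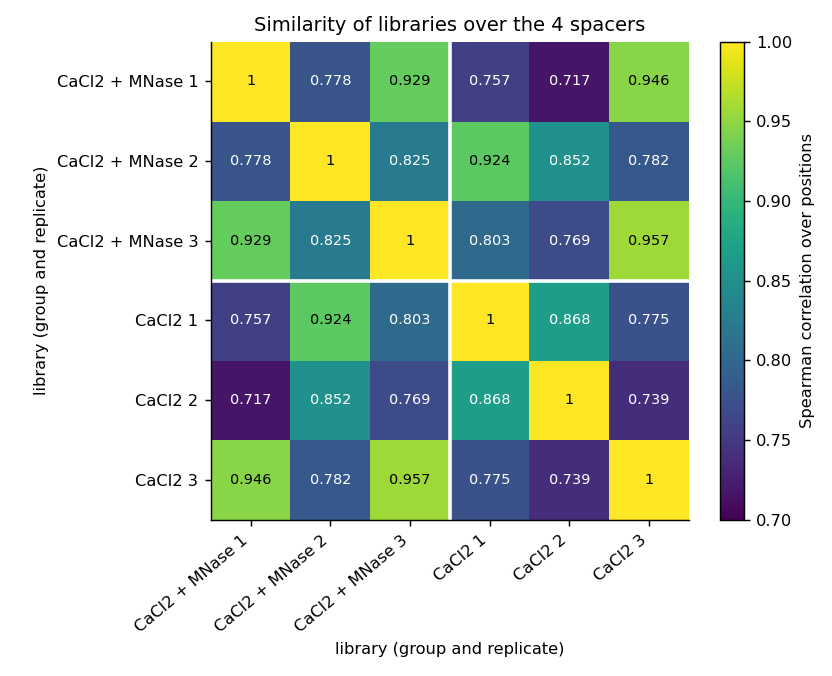
Spearman correlation between every pair of the 6 libraries over the 1504 spacer positions, with CaCl2 + MNase libraries above and left of CaCl2 libraries and white lines between the groups. CaCl2 + MNase replicates 1 and 3 and CaCl2 replicate 3 form a block of 0.929 to 0.957, and CaCl2 + MNase replicate 2 reaches 0.924 with CaCl2 replicate 1.

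The first principal component of log2(CPM + 1) over the spacers held 67.6% of the variance and gave the same order. Its scores were 20.3, -10.9 and 15.9 in CaCl2 + MNase replicates 1, 2 and 3, against -20.9, -28.7 and 24.3 in CaCl2 replicates 1, 2 and 3. The groups overlap along it. The deepest library of each group, both replicates 3, lay on the positive side, as did CaCl2 + MNase replicate 1 with 3401715 reads, and the part of depth in it was not tested. The spacer profile of the untreated lysates had mean correlations of 0.529, 0.742 and 0.588 with the CaCl2 + MNase libraries, against 0.764, 0.732 and 0.559 with the CaCl2 libraries.

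The bases at the 2 ends of this component differed. Among the 38 spacer positions with the most positive weights, 27 (71.1%) ended in U and 0 in A, whereas U made up 33.0% of spacer positions and A 28.4%. Among the 38 with the most negative weights, 19 (50%) ended in A and 5 in U, and the next base was U at 26 (68.4%). Since the weights were taken from these values, no test was made. Position 340 of ETS1, a U, had 373, 34.1 and 351 CPM in CaCl2 + MNase replicates 1, 2 and 3, against 14.0, 18.1 and 280 CPM in CaCl2 replicates 1, 2 and 3. Position 6797 of ETS2, an A followed by U, had 8.83, 118 and 13.8 CPM in the CaCl2 + MNase libraries, against 69.8, 86.9 and 6.05 CPM in the CaCl2 libraries. Both positions were picked by their weights on a component that separates libraries within groups. Large differences within a group were thus built into the choice. A shift of whole profiles by 1 position did not raise the similarity of any of the 15 pairs. The correlations with 1 profile moved by 1 position were 0.503 to 0.698. Between the 2 sides of the component the direction of the shift mattered. Against CaCl2 + MNase replicate 1, replicate 2 gave 0.554 moved upstream and 0.666 moved downstream. On the same side it mattered less, with 0.665 and 0.672 for CaCl2 + MNase replicate 3 against replicate 1. Moving whole profiles cannot show a shift at some positions only, which was not tested. What set these libraries apart was not tested. The labels name no batch, and whether a label was exchanged or a batch was shared was not tested either, so each group difference here holds only as far as the labels do. Many spacer differences that leaving out 1 library moved by over 1.5 times are given with their largest such shifts, beside the result or among the alternatives.

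CaCl2 + MNase libraries varied less among themselves than CaCl2 libraries. The median SD of log2(CPM + 1) at a spacer position was 0.407 over the 3 CaCl2 + MNase libraries and 0.630 over the 3 CaCl2 libraries, and at an rRNA gene position it was 0.125 and 0.230. The SD was lower with MNase at 72.4% of all positions. With 3 libraries a group and 1 gene, this spread is a description.

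No region took a share of 35S signal that passed the test. The 4 spacers together held 4.93, 4.83 and 5.10% of the signal in CaCl2 + MNase libraries, against 3.71, 2.94 and 5.62% in CaCl2 libraries. The highest and both lowest shares were thus CaCl2 libraries. The mean log2 difference was 0.33 with a pooled SD within groups of 0.34, and a two-sided exact permutation test of 3 against 3 libraries gave p = 0.4, where 0.1 is the smallest p this design can give. It ranged between 0.12 without CaCl2 replicate 2 and 0.59 without CaCl2 replicate 3.

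Among the spacers, ITS1 had the largest difference. It held 1.10 ± 0.0817% of the signal in CaCl2 + MNase libraries and 0.789 ± 0.295% in CaCl2 libraries (SD, n = 3 each), a log2 difference of 0.54 (exact permutation p = 0.3, adjusted p = 0.583 by the Benjamini-Hochberg method, 7 regions). ITS2 held 0.848 ± 0.0359% with MNase and 0.687 ± 0.202% with CaCl2 alone, and ETS2 held 0.629 ± 0.0276% and 0.516 ± 0.226% (exact permutation p = 0.3 and 0.6). ETS1 held 2.38 ± 0.189% in CaCl2 + MNase libraries and 2.10 ± 0.704% in CaCl2 libraries (exact permutation p = 0.4), against 4.23 ± 0.212% in untreated libraries. The log2 difference of ETS1 was 0.23, against 0.11 without CaCl2 replicate 1, 0.085 without CaCl2 replicate 2 and 0.49 without CaCl2 replicate 3. Without CaCl2 replicate 2 the log2 difference of ITS1 was 0.29, that of ITS2 was 0.10 and that of ETS2 was 0.0031, and without CaCl2 replicate 3 they were 0.82, 0.54 and 0.70. The 18S gene held 34.1 ± 0.541% and 33.8 ± 0.443%, and the 25S gene held 57.9 ± 0.505% and 58.8 ± 1.73% in CaCl2 + MNase and CaCl2 libraries (exact permutation p = 0.5 for each).

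The 5.8S gene was the only region whose groups did not overlap. It held 3.14, 3.12 and 3.19% of the signal in CaCl2 + MNase libraries, against 3.33, 3.45 and 3.29% in CaCl2 libraries. All 3 shares were lower with MNase, by a log2 difference of -0.090 with a pooled SD of 0.028. The exact permutation p was 0.1, the smallest the design allows, and 0.583 after adjustment over the 7 regions. Without position 2970, an alternative chosen after seeing the data, the shares were 2.98 ± 0.0530% in CaCl2 + MNase libraries and 3.06 ± 0.0141% in CaCl2 libraries, still without overlap, and the log2 difference was -0.039.

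**Figure D2:**
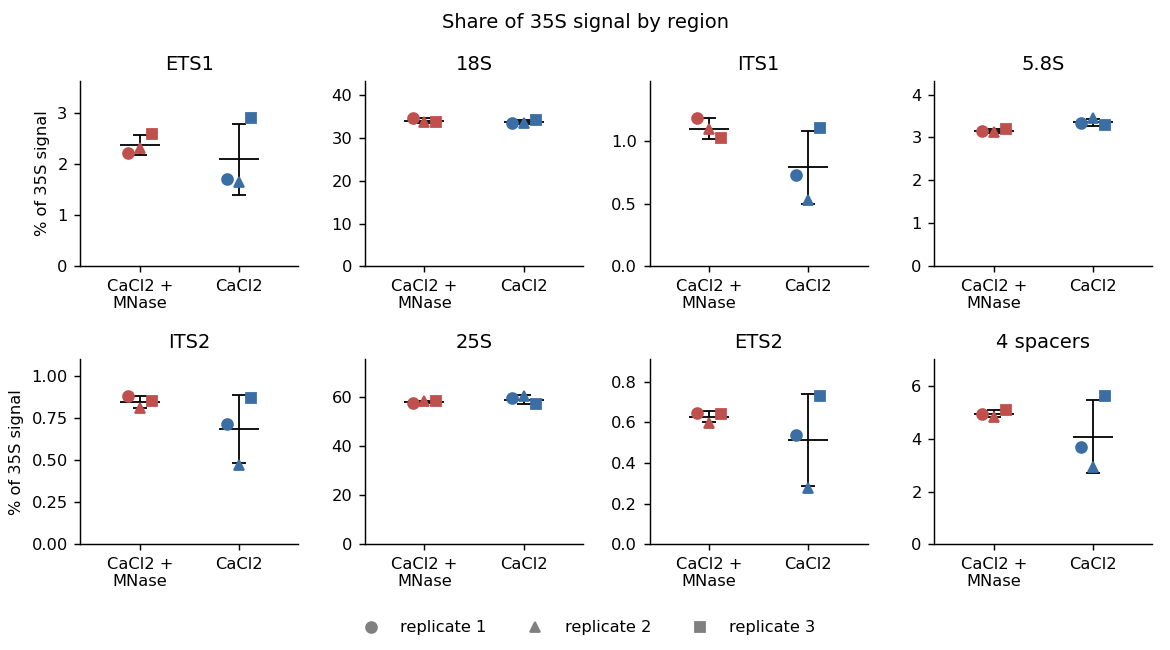
Share of 35S signal (%) in each region and in the 4 spacers together, with CaCl2 + MNase libraries left and CaCl2 libraries right in each panel. Each point is a library, shaped by replicate, and bars are the mean ± SD of 3 libraries. For the 4 spacers together the CaCl2 + MNase libraries lie at 4.83 to 5.10% and the CaCl2 libraries at 2.94 to 5.62%, and only the 5.8S groups do not overlap.

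No single position passed the test across the gene. The limma test on log2(CPM + 1) was made at the 6841 positions with signal in at least 3 of the 6 libraries, and 0 passed an adjusted p of 0.05 (0%). The smallest adjusted p was 0.273. At an unadjusted p of 0.05, 156 positions passed (2.28%), of which 96 were higher (1.4%) and 60 lower (0.877%) with MNase. That is fewer than the share of 0.05 that this threshold passes where groups do not differ. These counts rest on single libraries. Without CaCl2 replicate 3 there were 790, of which 619 were higher and 171 lower, without CaCl2 + MNase replicate 1 there were 67, of which 44 were higher and 23 lower, and without CaCl2 + MNase replicate 3 there were 78, of which 57 were higher and 21 lower. edgeR's quasi-likelihood test on the recovered reads gave 0 calls too, with 150 positions at an unadjusted p of 0.05, of which 67 were higher and 83 lower. That split moved with the scaling, to 83 higher and 72 lower with median-ratio scaling and to 54 higher and 109 lower with libraries scaled to their spacer sum.

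At 271 positions (3.96%) all CaCl2 + MNase libraries were above all CaCl2 libraries, and at 284 (4.15%) all were below, together 555 (8.11%). Where groups of 3 do not differ, a share of 0.1 is without overlap. In 5.8S, 13 of 156 tested positions passed an unadjusted p of 0.05 (8.33%), 9 of them lower with MNase, and 23.1% had groups without overlap. In the spacers 39 of 1492 passed (2.61%), 37 of them higher with MNase, and in the rRNA genes 117 of 5349 (2.19%), with 59 higher and 58 lower. Both shares were near the 2.28% over all positions. Of all tested spacer positions, 75.7% had a log2 change above 0.

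The data bound what MNase could have changed. The 95% interval of the log2 change had a median half-width of 0.40 at rRNA gene positions and 1.02 at spacer positions. It lay within ±1, that is within a doubling either way, at 4925 of 5349 rRNA gene positions (92.1%) and at 281 of 1492 spacer positions (18.8%). Changes under a doubling in a spacer were therefore mostly not detectable at single positions with these libraries. The estimated log2 change itself was beyond ±1 at 108 positions, 99 of them in spacers. The median change was 0.28 over spacer positions, with 75.7% above 0, and 0.016 over rRNA gene positions. ITS1 had the highest median of the spacers, 0.42, followed by ITS2 with 0.38, ETS2 with 0.36 and ETS1 with 0.15. Over all tested positions it was 0.045.

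Position 4808, an A in 25S, stood first by p. It had 355, 316 and 362 CPM in CaCl2 + MNase libraries, against 187, 189 and 175 CPM in CaCl2 libraries. The groups were far apart and each was tight, with means of 344 ± 24.6 and 184 ± 7.59 CPM (SD, n = 3 each). The log2 change was 0.90 (SE 0.11, 95% interval 0.65 to 1.15, limma, unadjusted p = 4.0e-05, adjusted p = 0.273). The untreated libraries averaged 174 ± 18.6 CPM there. In a limma fit with all 15 libraries sharing 1 estimate of the spread, it was the only position called, at an adjusted p of 0.00138, and over 17 fits its adjusted p was between 0.00138 and 0.999. Position 4809 next to it, also an A, had 185, 192 and 188 CPM with MNase, against 133, 122 and 104 CPM with CaCl2 alone (log2 change 0.66, limma adjusted p = 0.928). Positions 4805 to 4807 and position 4810 had log2 changes from -0.06 to 0.06, and positions 4811 and 4812 had 0.38 and 0.18, the second without overlap of the groups.

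Position 2970, an A in 5.8S, had the largest signal of that gene and its largest fall. It had 1399, 1995 and 1732 CPM in CaCl2 + MNase libraries, against 2698, 3738 and 2397 CPM in CaCl2 libraries. No CaCl2 + MNase library reached the lowest CaCl2 library, and the untreated libraries were lower still, at 539 ± 77.6 CPM. The log2 change was -0.77 (SE 0.29, limma adjusted p = 0.928). Position 2867, the sixth base of 5.8S, went the other way, with 15.9, 27.4 and 18.3 CPM with MNase, against 8.72, 9.97 and 8.87 CPM with CaCl2 alone (log2 change 1.05, limma adjusted p = 0.928).

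In 18S, position 1814 had 151, 186 and 177 CPM in CaCl2 + MNase libraries, against 106, 121 and 124 CPM in CaCl2 libraries (log2 change 0.54, limma adjusted p = 0.928). Its neighbours had the same sign, up to 0.67 at position 1811, where the values were 428, 375 and 349 CPM with MNase, against 208, 215 and 311 CPM with CaCl2 alone. Position 929 had 72.7, 80.3 and 72.3 CPM in CaCl2 + MNase libraries, against 110, 163 and 111 CPM in CaCl2 libraries (log2 change -0.74, limma adjusted p = 0.928). Position 929 was chosen among positions whose groups do not overlap. Among 18S positions of at least 10 CPM whose groups did not overlap, the largest positive change was at position 706, between low levels of 14.8 ± 4.03 CPM with MNase and 6.88 ± 2.72 CPM with CaCl2 alone. In 25S, position 4835 had the largest negative change, with 35.02, 50.3 and 46.4 CPM with MNase, against 50.9, 158 and 56.0 CPM with CaCl2 alone, and CaCl2 replicate 2 stood far above the rest (log2 change -0.81, limma adjusted p = 0.928, with a change of -0.29 without that library). The highest 18S position, 2498, lies at the mature 3′ end and averaged 3344 ± 441 CPM with MNase and 2322 ± 1189 CPM with CaCl2 alone. The highest position of the gene, 6646, lies at the 3′ end of 25S and averaged 8007 ± 698 CPM with MNase and 6081 ± 2034 CPM with CaCl2 alone. At these ends the groups overlapped, and CaCl2 replicate 2 was the lowest library at both. The log2 changes, 0.66 and 0.45, were 0.23 and 0.16 without it, and 1.03 at position 2498 without CaCl2 replicate 1. How much of the signal in these genes came from mature rRNA was not tested.

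In ETS1, the position with the highest signal, 437, had 691, 950 and 665 CPM in CaCl2 + MNase libraries, against 562, 697 and 691 CPM in CaCl2 libraries. The groups overlapped there (log2 change 0.23, limma adjusted p = 0.928, with a change of 0.068 without CaCl2 + MNase replicate 2 and 0.13 without CaCl2 replicate 1). Position 555, chosen among positions whose groups do not overlap, had 64.7, 95.4 and 87.7 CPM with MNase, against 45.4, 33.5 and 49.5 CPM with CaCl2 alone (log2 change 0.93, limma adjusted p = 0.928). At the base before it, position 554, the values were 14.1, 132 and 11.9 CPM in CaCl2 + MNase libraries, against 67.3, 64.5 and 10.6 CPM in CaCl2 libraries, so that the groups were mixed again. Position 63 had 4.12, 9.95 and 8.24 CPM with MNase, against 11.5, 21.1 and 11.6 CPM with CaCl2 alone (log2 change -0.92, limma adjusted p = 0.928, with a change of -0.59 without CaCl2 + MNase replicate 1). Both groups were far below the 86.0 ± 4.06 CPM of the untreated libraries.

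In ITS1, the largest signal sat on the third base behind the mature 3′ end of 18S. Position 2503 had 1767, 1421 and 1132 CPM in CaCl2 + MNase libraries, against 1441, 515 and 1118 CPM in CaCl2 libraries (log2 change 0.59, limma adjusted p = 0.928). The change was 0.16 without CaCl2 replicate 2 and 0.90 without CaCl2 replicate 1. Position 2842 had 38.8, 31.8 and 26.0 CPM with MNase, against 8.72, 8.09 and 25.2 CPM with CaCl2 alone. The lowest MNase library and the highest CaCl2 library nearly met (log2 change 1.31, limma adjusted p = 0.928). Position 2741 had 7.95, 11.2 and 9.29 CPM with MNase, against 12.9, 17.3 and 12.0 CPM with CaCl2 alone (log2 change -0.52).

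In ITS2, position 3021, the highest, had 604, 536 and 553 CPM in CaCl2 + MNase libraries, against 662, 394 and 533 CPM in CaCl2 libraries (log2 change 0.12, limma adjusted p = 0.939, with a change of -0.076 without CaCl2 replicate 2 and 0.30 without CaCl2 replicate 1). Position 3074 had 21.2, 25.2 and 20.5 CPM with MNase, against 15, 4.51 and 15.2 CPM with CaCl2 alone (log2 change 1.04, limma adjusted p = 0.928, with a change of 0.53 without CaCl2 replicate 2). In ETS2, position 6662, the base before the Rnt1 segment, had 1366, 1378 and 1577 CPM in CaCl2 + MNase libraries, against 1299, 299 and 1983 CPM in CaCl2 libraries (log2 change 0.65, -0.16 without CaCl2 replicate 2 and 1.20 without CaCl2 replicate 3). Within that segment, position 6669 had 128, 110 and 121 CPM with MNase, against 62.8, 22.2 and 106 CPM with CaCl2 alone (log2 change 1.16, limma adjusted p = 0.928, with a change of 0.55 without CaCl2 replicate 2). The 3 MNase libraries agreed closely at both sites, whereas CaCl2 replicate 2 was lowest at both. ITS2 and ETS2 held no position of at least 10 CPM at which all CaCl2 + MNase libraries were below all CaCl2 libraries.

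**Figure D3:**
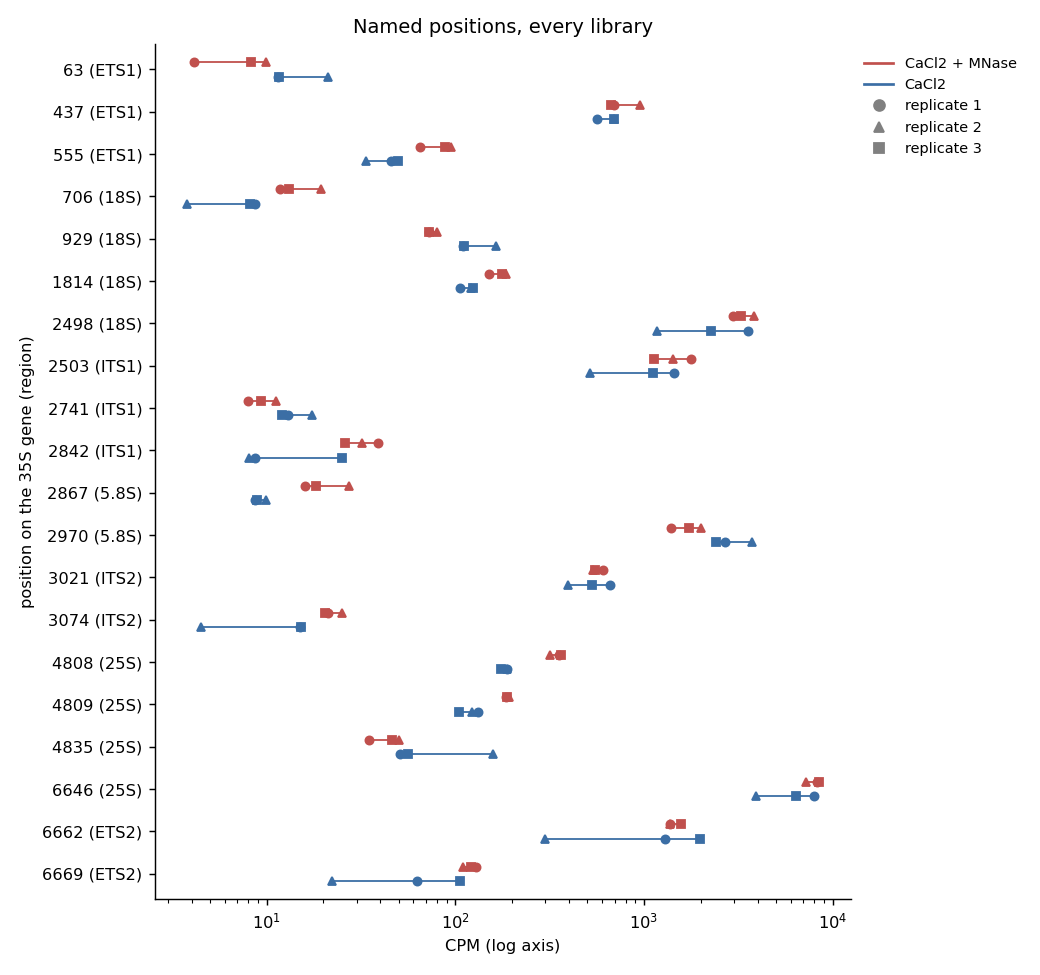
CPM (log axis) at 20 positions in every library, with CaCl2 + MNase above CaCl2 in each pair of rows and symbols for replicates. The positions are the highest of each region, the most changed of those without overlap and those with the smallest p. At position 4808 the CaCl2 + MNase libraries lie at 316 to 362 CPM and the CaCl2 libraries at 175 to 189 CPM, while in the spacers CaCl2 replicate 2 often lies far to the left.

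The strongest spacer positions were largely those of both groups. Of the 38 positions with the highest group median (the top 2.5%), 29 were shared, which is 76.3% of each list, and so were all of the top 10. In the top 38 of all 6 libraries there were 20 positions. Of these, positions 2502 to 2504, 3021 to 3025, 6650 and 6651 lie in the 10 positions behind mature 3′ ends. All 7 in ETS1 ended in G, whereas outside ETS1 only position 2503 did. G made up 22.9% of the positions of all spacers together, and its share of ETS1 positions alone is not given. Among the 7 was position 165, with 373, 338 and 1029 CPM in CaCl2 + MNase libraries, against 259, 330 and 427 CPM in CaCl2 libraries. The 38 strongest positions of a library held 32.5, 37.7 and 32.8% of its spacer signal with MNase, against 42.4, 35.4 and 31.3% with CaCl2 alone.

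Summed over 69 windows of 100 nt, the differences were small outside the spacers. The limma test called 0 windows (0%), and 2 passed an unadjusted p of 0.05. Groups did not overlap at 9 windows (13%), 4 of them higher and 5 lower with MNase. The median 95% half-width was 0.19 on the log2 scale. In ITS1 the log2 change was positive in all 3 windows, in ETS1 in 6 of 7 and in ETS2 in both, against 11 of 18 in 18S and 16 of 33 in 25S. The largest positive change was in ITS1, at positions 2601 to 2700, with 1913, 2004 and 1811 CPM in CaCl2 + MNase libraries, against 978, 645 and 2068 CPM in CaCl2 libraries. CaCl2 replicate 3 was above all 3 MNase libraries there (log2 change 0.80, SE 0.44, limma adjusted p = 0.636). The change was 0.42 without CaCl2 replicate 2 and 1.26 without CaCl2 replicate 3.

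The largest negative change was in 5.8S, at positions 2901 to 3000, which include position 2970. This window had 17555, 17882 and 18290 CPM in CaCl2 + MNase libraries, against 20150, 22368 and 20061 CPM in CaCl2 libraries. The groups did not overlap, and the log2 change was -0.22 (95% interval -0.34 to -0.09, limma adjusted p = 0.285). Without CaCl2 replicate 2 it was -0.17 and passed the test (limma adjusted p = 0.0153), and it was the only window called in any of the alternatives tried.

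**Figure D4:**
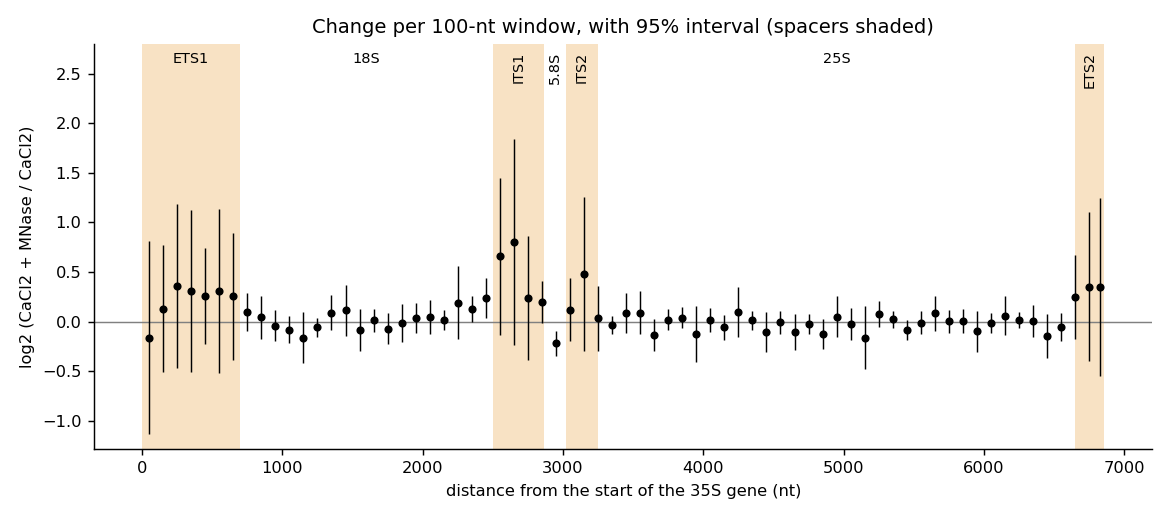
Log2 change (CaCl2 + MNase over CaCl2) in 69 windows of 100 nt against the distance from the start of the 35S gene (nt), with limma 95% intervals and spacers shaded. Changes in 18S and 25S lie between -0.16 and 0.24, spacer intervals are several times wider and all include 0, and the 5.8S window lies at -0.22.

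The CPM values of each spacer were compared by the Kolmogorov-Smirnov (K-S) distance D between the median profiles, the largest gap between the cumulative distributions of CPM over positions. D takes no account of where a position lies, and a difference in level alone raises it. D was largest in ITS1, at 0.244, and was 0.211 for ITS2, 0.171 for ETS2 and 0.103 for ETS1. Permuting libraries rather than positions, the one-sided exact permutation p was 0.7 for ETS1 and 0.4 for each of the others (0.7 and 0.533 after adjustment over the 4 spacers). Without CaCl2 replicate 1 they were 0.078 for ITS1, 0.13 for ITS2, 0.043 for ETS2 and 0.044 for ETS1, without CaCl2 replicate 2 they were 0.066, 0.073, 0.047 and 0.047 in that order, and without CaCl2 replicate 3 they were 0.31, 0.26, 0.23 and 0.13. Without CaCl2 replicate 1, or without CaCl2 replicate 2, D was therefore largest in ITS2. After each profile was scaled to its own sum, D was smaller, at 0.0582 for ITS1, 0.103 for ITS2, 0.0521 for ETS2 and 0.03 for ETS1.

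The bases at the mapped 3′ ends were then compared, without the 10 positions behind each mature 3′ end. Of the spacer signal, 20.4, 31.1 and 21.1% ended in A in CaCl2 + MNase libraries, against 28.6, 31.0 and 20.9% in CaCl2 libraries. For U the shares were 35.7, 25.1 and 34.5% with MNase, against 28.4, 24.5 and 36.1% with CaCl2 alone (exact permutation p = 0.8). Both bases showed the split of libraries described above rather than that of the groups. G ended 31.7 ± 0.834% of the signal with MNase and 30.5 ± 1.93% with CaCl2 alone. That difference of 1.18 points was 0.31 without CaCl2 replicate 3 and 2.22 without CaCl2 replicate 2. The difference for A, -2.61 points, was -6.07 without CaCl2 + MNase replicate 2 and -0.54 without CaCl2 replicate 2.

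By the next base downstream, A was lower by 0.405 percentage points and U by 1.10 points in CaCl2 + MNase libraries, with exact permutation p of 0.9 and 0.8. MNase prefers sites before A and U, but whether RNA ends cut by it enter these libraries was not tested. The share before G was 29.9, 27.8 and 28.2% with MNase, against 27.1, 27.1 and 26.4% with CaCl2 alone. These groups did not overlap, with a difference of 1.73 points (exact permutation p = 0.1, the smallest possible, and 0.8 after adjustment over 8 shares). Without CaCl2 + MNase replicate 1 the difference was 1.09 points. Over positions of the whole gene, the median log2 change was 0.031 before A, 0.038 before C, 0.057 before G and 0.052 before U. Among positions at an unadjusted p of 0.05, G was the last base at 41 of 96 higher positions (42.7%) and at 5 of 60 lower ones (8.33%), against 26.4% of positions tested. Without CaCl2 replicate 1 these shares were 26.2 and 25.4%, so that 1 library decided them.

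Features that the deposited table marks were summed. The Rnt1 segment held 958, 780 and 899 CPM in CaCl2 + MNase libraries, against 502, 227 and 1006 CPM in CaCl2 libraries (log2 change 0.85, exact permutation p = 0.4). It was 0.30 without CaCl2 replicate 2 and 1.38 without CaCl2 replicate 3. Again a CaCl2 library was the highest. At T1 the mean was 170 ± 24.5 CPM with MNase and 136 ± 86.6 CPM with CaCl2 alone, a log2 change of 0.49 that was 0.21 without CaCl2 replicate 1, 0.29 without CaCl2 replicate 2 and 0.98 without CaCl2 replicate 3. Past T1, where polymerases that read through the terminator would lie, the sums were 1047, 1064 and 739 CPM in CaCl2 + MNase libraries, against 589, 674 and 1021 CPM in CaCl2 libraries (log2 change 0.34, exact permutation p = 0.2). Without CaCl2 replicates 1 and 3, each left out alone, and without CaCl2 + MNase replicate 3, it was 0.18, 0.57 and 0.51. Both groups exceeded the 320 ± 27.8 CPM of the untreated libraries. The site bound by Reb1 and Nsi1, proteins that act in Pol I termination, held 141 ± 65.9 CPM with MNase and 109 ± 81.9 CPM with CaCl2 alone, a log2 change of 0.53 that ranged between 0.17 without CaCl2 + MNase replicate 1 or CaCl2 replicate 2, 0.31 without CaCl2 replicate 1 and 1.11 without CaCl2 replicate 3.

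The 10 positions behind the mature 3′ end of 18S held 2923 ± 585 CPM in CaCl2 + MNase libraries and 2074 ± 943 CPM in CaCl2 libraries, a log2 change of 0.60 that was 0.17 without CaCl2 replicate 2 and 0.90 without CaCl2 replicate 1. Behind 5.8S the sums were 2799 ± 101 and 2758 ± 748 CPM, and behind 25S 1683 ± 179 and 1520 ± 362 CPM, in CaCl2 + MNase and CaCl2 libraries. The exact permutation p was 0.3, 0.8 and 0.5 (0.583, 0.8 and 0.583 after adjustment over the 7 features), and none of the 7 features had groups without overlap.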

How the data were processed

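Per the labels and the study's methods, the authors removed PCR duplicates by unique molecular identifier with fqtrim, trimmed adaptors with cutadapt 3.4, aligned reads with STAR 2.7.1a to the R64 assembly and counted RNA 3′ ends per nucleotide with BEDTools 2.28.0. The deposited values are CPM, that is reads at a position divided by the library's 35S total up to T1 and multiplied by 1000000, so that only changes relative to that total can be seen. The deposited ratios and p-values were not used. The bases of all 6858 positions matched R64 on the minus strand. The region borders are those of the deposited table.

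From these, 6 libraries were compared in 2 groups of 3, and the members, lists and named positions were chosen with earlier results of these data known. Positions above 0 in at least 3 of 6 libraries were tested on log2(CPM + 1) with limma 3.58.1 (trend) in R 4.3.3 and Benjamini-Hochberg adjustment. A fold change on that scale understates the change of low positions. Named positions are, by region, the highest by mean CPM, those with the largest positive and negative change among positions of at least 10 CPM whose groups do not overlap, and the 5 smallest p. Shares, K-S distances and bases were tested by exact permutation over the 20 splits of 6 libraries. Reads were recovered from the CPM steps for edgeR 4.0.16. The limma and edgeR fits of positions were checked on simulated counts with known changes. Those counts were drawn independently around a common profile. They lacked the split of libraries described above, so the check does not cover it. The exact permutation test and the adjustment were checked only on short made-up values. Alternatives were other pseudocounts, filters, scalings, window sizes, a fit of all 15 libraries, edgeR, a replicate block and leaving out each library.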

Additional observations from a re-analysis of the deposited data

How the results depend on the processing

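Over the comparisons themselves, 241 alternative values were kept, 16 turned and 7 counts moved. For shares, bases and features only the direction was compared. A K-S distance is never negative, and a replicate block leaves the difference of a share as it is, so these could not turn. Over the named positions and windows, direction and side of the threshold were compared, and over the G shares only the size. Of these values, 338 were kept, 4 turned, 2 passed the threshold and 4 moved. No position was called under any alternative but the fit of all 15 libraries, which called 1 (position 4808) and put 534 positions at an unadjusted p of 0.05. Leaving out 1 library in turn gave 67 (without CaCl2 + MNase replicate 1) to 790 (without CaCl2 replicate 3) such positions, 78 without CaCl2 + MNase replicate 3, and 0 to 1 called windows. Same-numbered libraries had deviations that correlated at -0.376, 0.383 and 0.468 for replicates 1, 2 and 3. Read totals rose with the replicate number in both groups. These values of mixed sign cannot show whether the numbers pair the libraries. The replicate block left 0 positions called with 254 at an unadjusted p of 0.05. With the spacer sum as denominator, which lowers each change by the 0.33 of the spacer share, the log2 change was -0.10 for ETS1, -0.10 at position 437, -0.21 at position 3021, and -0.27 and -0.16 behind the mature ends of 5.8S and 25S. Without the library that moved it most, a log2 change could turn: the ranges over libraries left out were -0.0016 to 0.022 for 18S, -0.076 to 0.30 at position 3021, -0.16 to 1.20 at position 6662, -0.16 to 0.25 behind 5.8S and -0.025 to 0.33 behind 25S. In percentage points they were -0.46 to 5.41 for signal ending in U, -1.85 to 1.41 before A, -0.71 to 0.74 before C and -3.64 to 1.02 before U. The difference before A was 0.265 points with the mature ends included and 2.67 points among the top 5% of spacer positions, and before U it was 3.51 points among the top 2.5%. The cause was not tested. With 3 libraries a group no exact test can pass 0.05, and single spacer positions were mostly not bounded to within a doubling.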
